A study of Mus musculus with 8 samples.

Results

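The genes described here are 10 members of the transforming growth factor beta (TGF-beta) system, taken from the deposited count table of 37991 Ensembl genes by symbol. They are the ligand genes Tgfb1, Tgfb2, Tgfb3 and Inhba, the receptor genes Tgfbr1, Tgfbr2 and Tgfbr3, the latency genes Ltbp1 and Ltbp2, and the feedback inhibitor gene Smad7. All 10 were found in the table and all 10 passed the filter on low counts, with 9 to 920 reads per gene and library. The RNA came from isolated adult mouse heart muscle cells, with 4 libraries from single colored cells and 4 from double colored cells. Both groups carried the alpha-MHC MERCREMER transgene, a Cre recombinase driven by a promoter of heart muscle cells and switched on by tamoxifen, and the MADM reporter (mosaic analysis with double markers), in which a cell that divides after recombination can pass on a single color. Both groups also came from hearts injected with adenovirus encoding 4 cell cycle genes, 2 weeks before the cells were isolated. The labels describe single colored cells as having performed the cell cycle and double colored cells as not having done so. Hearts without the virus, the age of the mice and the number of animals behind a library are not stated in the sources used here. The p-values therefore reflect only how far these libraries spread, part of which may be technical.

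TGF-beta ligands are made as precursors and secreted with their cleaved propeptide still attached, which keeps them latent. Latent TGF-beta binding proteins tether this complex to the extracellular matrix, from which integrins, thrombospondin and proteases can release the active ligand. The ligand binds the type II receptor, which phosphorylates the type I receptor, and this in turn phosphorylates SMAD proteins that enter the nucleus and change transcription. In the heart the pathway is best known for driving fibroblasts to deposit matrix after injury.

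Library totals lay between 23820700 and 30082278 reads, of which mitochondrially encoded genes took 77.5% to 88.3%, so that 3503353 to 3850391 nuclear-encoded reads remained in double colored and 3750616 to 6112595 in single colored libraries. The cardiomyocyte label was checked against 10 marker genes, all of which were detected. Their summed level was 11238 to 12092 CPM (reads scaled to library size with TMM factors) in double colored and 5756 to 10275 CPM in single colored libraries. Of these 10 genes 9 had negative log2 fold changes and Myh7 a positive one (0.79), and none was called. Markers of other cell types were present as well. Fibroblast markers summed to 390 to 823 CPM in double and 679 to 1913 CPM in single colored libraries. Macrophage markers summed to 113 to 148 and 182 to 305 CPM, and lymphocyte markers to 1.80 to 4.56 and 17.1 to 34.0 CPM. Of the 10 macrophage markers 9 had positive log2 fold changes and Mrc1 a negative one (−0.40). Of these markers 3 were called higher, against 2.32% of all tested genes. Of the 10 lymphocyte markers 8 were tested and all 8 were called higher, with a median log2 fold change of 2.75. The fibroblast list was mixed, with 6 positive and 4 negative fold changes among 10 genes, a median of 0.19 on the log2 scale and 1 gene called, Col1a1. Endothelial markers (145 to 196 and 142 to 176 CPM) overlapped between the groups. Smooth muscle and pericyte markers summed to 439 to 571 CPM in double and 347 to 434 CPM in single colored libraries, and Rgs5 and Abcc9 made up most of these sums, while the 9 tested genes of the list split into 4 positive and 5 negative fold changes (median −0.03), none called. Mesothelial markers summed to 2.76 to 8.81 and 6.08 to 10.2 CPM. In bulk RNA, fewer cells of a type and less RNA per cell cannot be told apart.

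**Figure D1:**
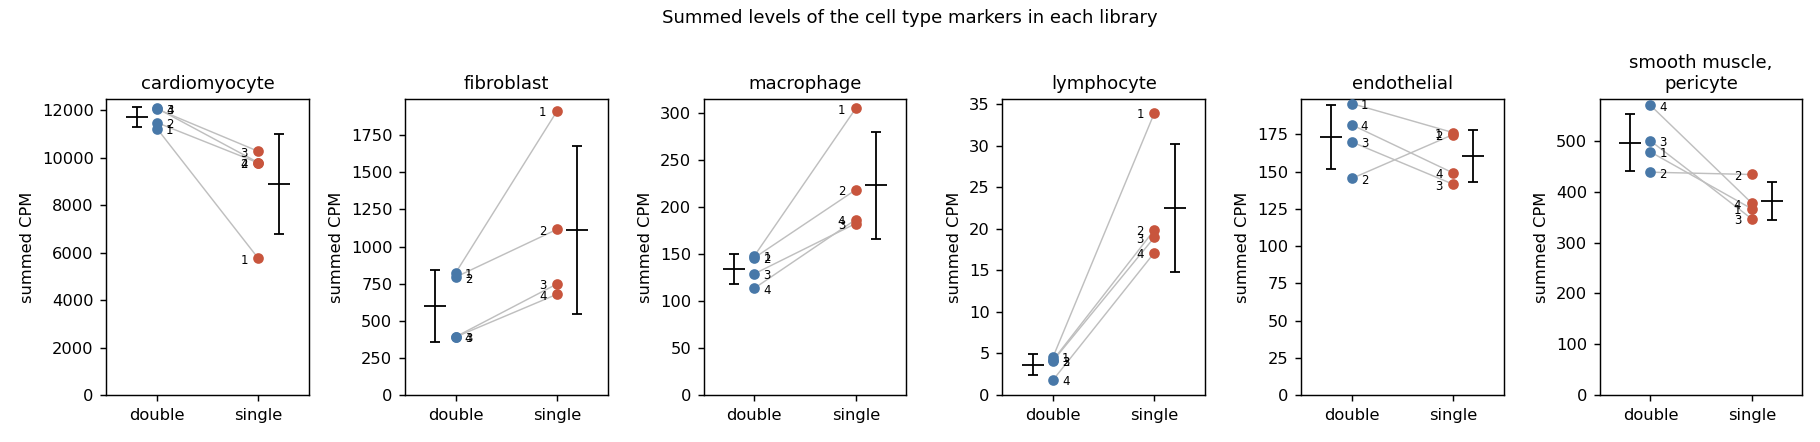
Summed CPM of each cell type marker list (y axis, from 0) in the 4 double and 4 single colored libraries (points, numbered by replicate, with lines joining equal numbers and mean ± SD beside them). The cardiomyocyte sum and the smooth muscle and pericyte sum were lower in every single colored library than in any double colored one. The lymphocyte and macrophage sums were higher in the same way. Single colored replicate 1 had the lowest cardiomyocyte sum, 5756 CPM, and the highest fibroblast sum, 1913 CPM.

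RefSeq promoter sequences (build GRCm38.p6, not the mm9 build of the counts) were used for 7 of the 10 genes, with 9 transcription starts in all. Windows of Smad7 were left out. Those of Ltbp1 and Ltbp2 are shown because these latency genes had fold changes of opposite sign, and that of Tgfb2 because it was the ligand gene with no overlap between groups. Each is the 250 bases before a transcription start, 5′ to 3′ on the gene's strand. Capitals mark matches, on either strand, to the SMAD-binding CAGA box (CAGACA, or TGTCTG on the other strand), the AP-1 site (TGANTCA), the cyclic AMP response element (TGACGTCA) and the GC box (GGGCGG, or CCGCCC on the other strand). No 2 of these patterns overlapped in the windows shown.
Ltbp1, first start (chr17:75005279-75005528, plus strand): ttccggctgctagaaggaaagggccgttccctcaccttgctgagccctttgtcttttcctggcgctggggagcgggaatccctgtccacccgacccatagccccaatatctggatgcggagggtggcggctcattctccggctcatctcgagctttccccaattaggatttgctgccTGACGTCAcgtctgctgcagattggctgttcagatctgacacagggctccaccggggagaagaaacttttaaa
Ltbp1, second start (chr17:75178531-75178780, plus strand): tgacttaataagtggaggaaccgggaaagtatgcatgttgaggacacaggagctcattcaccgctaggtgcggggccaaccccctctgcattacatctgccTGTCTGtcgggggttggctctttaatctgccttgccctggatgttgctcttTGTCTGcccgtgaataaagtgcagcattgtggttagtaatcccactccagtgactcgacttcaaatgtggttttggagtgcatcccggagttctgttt
Ltbp2 (chr12:84876492-84876741, minus strand): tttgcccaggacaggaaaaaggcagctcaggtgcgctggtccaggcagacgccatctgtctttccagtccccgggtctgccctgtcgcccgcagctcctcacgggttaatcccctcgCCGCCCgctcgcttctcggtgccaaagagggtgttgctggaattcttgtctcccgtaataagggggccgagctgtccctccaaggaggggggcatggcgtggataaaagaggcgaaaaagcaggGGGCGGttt
Tgfb2 (chr1:186705990-186706239, minus strand): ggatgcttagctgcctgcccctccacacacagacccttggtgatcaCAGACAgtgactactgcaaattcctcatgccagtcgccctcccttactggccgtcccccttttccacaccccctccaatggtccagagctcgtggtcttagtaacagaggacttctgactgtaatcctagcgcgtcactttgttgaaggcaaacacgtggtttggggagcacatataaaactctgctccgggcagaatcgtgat
The first Ltbp1 window holds 1 cyclic AMP response element, 73 to 66 bases before the start, a pattern present in 1.55% of 32851 mouse promoters of this length. The second Ltbp1 window holds 2 CAGA boxes and the Tgfb2 window holds 1, against 17.1% of promoters with at least 1. The Ltbp2 window holds 2 GC boxes, which occur in 32.7% of promoters, and no CAGA box. None of the 9 windows holds an AP-1 match (6.75% of promoters). A match is a run of letters and does not show binding.

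The comparison of single with double colored cells asks how transcripts of cells labeled as having cycled differed from those of cells labeled as not having done so. Of the 10 genes, Tgfbr3 fell and none rose by the edgeR quasi-likelihood test (adjusted p under 0.05, no block for the replicate number), where 0.16% of all 12466 tested genes were called lower, 2.32% higher and 2.48% in either direction. Unadjusted p-values under 0.05 were reached by 4 genes with positive and 2 with negative fold changes, against 9.02% and 6.1% of all genes. With the replicate number as a block, Tgfbr1, Tgfb3 and Ltbp2 were called higher and Tgfbr3 lower (4.97% and 2.57% of all genes). The median log2 fold change, single over double colored, was 0.58 over the 10 genes and −0.01 over all tested genes. For 8 of the 10 genes all 4 numbered pairs of libraries differed in the same direction, which held for 27.7% of all tested genes. With scaling by library totals alone, 9 of the 10 genes had positive fold changes in place of 8. With that scaling 5 were called higher (Tgfb1, Tgfb2, Tgfb3, Tgfbr1 and Tgfbr2) and none lower, where 1389 of all 12466 tested genes were called higher and 1 lower. The median was then 1.11 over the 10 genes and 0.48 over all genes.

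**Figure D2:**
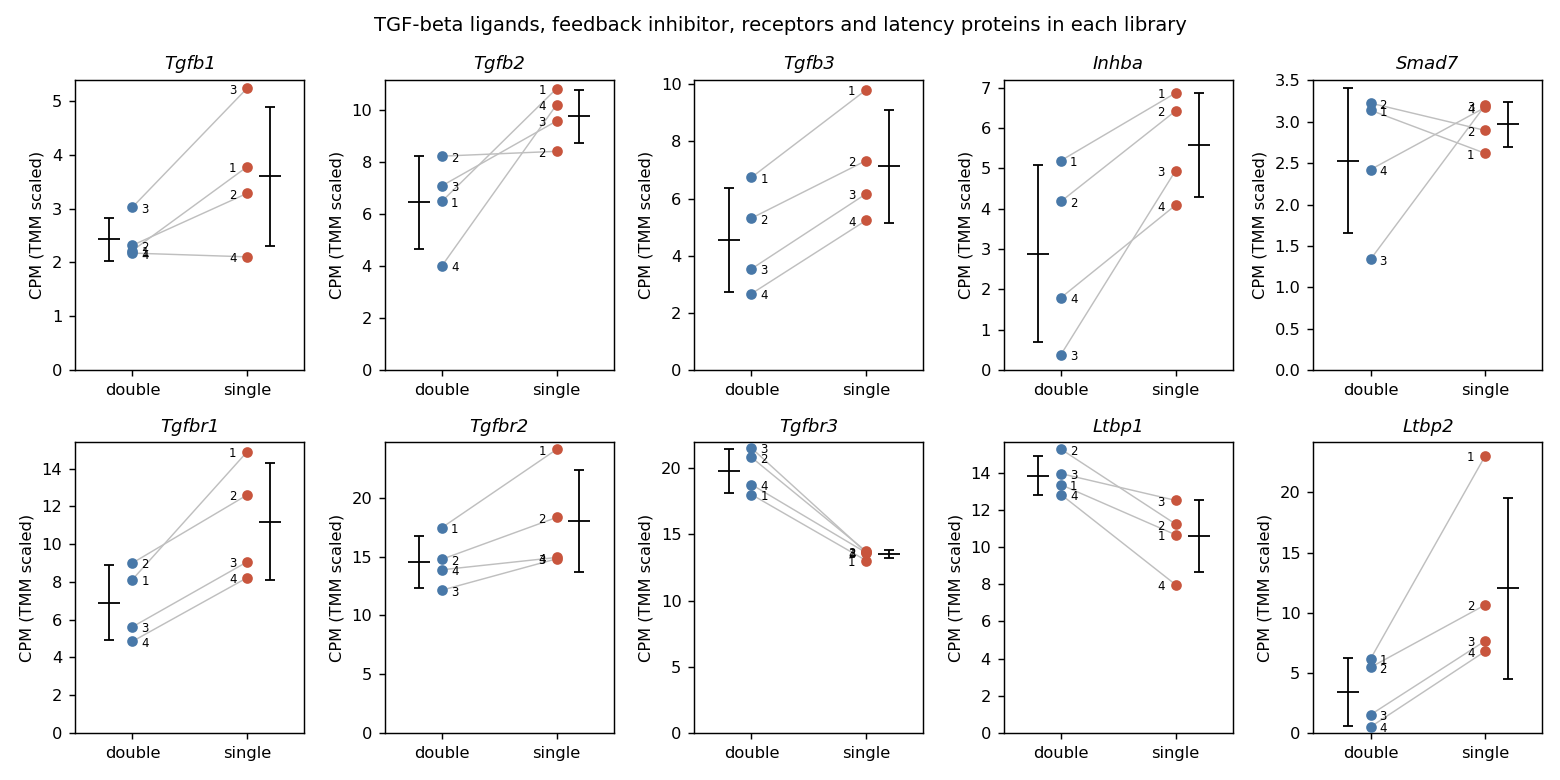
Level of each of the 10 genes (y axis, CPM with TMM scaling, from 0) in double and single colored libraries (points, numbered by replicate, with lines joining equal numbers and mean ± SD beside them). Tgfbr3 and Ltbp1 were lower, and Tgfb2 and Ltbp2 higher, in every single colored library than in any double colored one. Of all tested genes 3.76% were lower and 5.37% higher in this way. In both groups libraries 1 and 2 were the higher pair for Tgfb3, Inhba, Tgfbr1, Tgfbr2 and Ltbp2.

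Tgfbr3 (ENSMUSG00000029287, mm9 chromosome 5, 107535589 to 107718648) encodes betaglycan, a coreceptor that presents TGF-beta, above all the Tgfb2 product, to the type II receptor and also binds inhibins. It stood at 18.0, 20.8, 21.5 and 18.8 CPM in double colored replicates 1 to 4 and at 13.0, 13.7, 13.6 and 13.6 CPM in single colored replicates 1 to 4. Every single colored library lay below every double colored one, as did 3.76% of all tested genes, and the single colored values lay within 1 CPM of each other. The mean fell from 19.8 ± 1.66 to 13.5 ± 0.319 CPM (SD, n = 4 each), which is −0.55 ± 0.13 on the log2 scale (SE; adjusted p = 0.0374 by edgeR), and the differences within the numbered pairs ran from −0.66 to −0.46. With the replicate block the fold change was −0.55 (adjusted p = 0.0112). The call was lost in each of the 8 fits that left out 1 library (adjusted p 0.0562 to 0.110, fold changes −0.60 to −0.51) and with no filter or a 5 CPM filter (0.0621 and 0.0511). With scaling by library totals alone the fold change was −0.07 (adjusted p = 0.857), with the median of all genes at 0.48. Summed cardiomyocyte markers were lower in the same libraries, with a difference of −0.40 in the log2 of their mean sum and of −0.97, −0.23, −0.23 and −0.30 in pairs 1 to 4. None of the 10 markers was called, and Myh7 had a positive log2 fold change (0.79). The part of these markers in the Tgfbr3 difference was not tested.

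The 3 genes whose log2 CPM followed Tgfbr3 most closely over the 8 libraries were Pkp2, which encodes a desmosomal plaque protein of the intercalated disc (Pearson r = 0.97), Polr3k, a subunit of RNA polymerase III (0.96), and Dyrk1a, a protein kinase (0.95). These correlations hold the difference between the groups as well as the spread within them and are given as a description. Pkp2 stood at 64.0 CPM in double and 45.5 CPM in single colored libraries on average and did not pass the threshold (log2 fold change −0.49, edgeR adjusted p = 0.0766).

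The signaling receptors had fold changes of the opposite sign. Tgfbr1 (ENSMUSG00000007613, chromosome 4, 47366094 to 47427803), the type I receptor kinase that phosphorylates SMADs, was measured at 8.12, 8.998, 5.62 and 4.85 CPM in double colored replicates 1 to 4 and at 14.9, 12.6, 9.06 and 8.22 CPM in single colored ones. The groups overlapped in that single colored replicate 4 lay below double colored replicate 2, although each single colored library exceeded the double colored library of its own number. The log2 fold change was 0.70 ± 0.23 (SE; edgeR adjusted p = 0.145), and with the replicate block Tgfbr1 rose by 0.70 (adjusted p = 0.00943). Without both libraries numbered 1 the blocked fit gave 0.64 (adjusted p = 0.0615).

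Tgfbr2 (ENSMUSG00000032440, chromosome 9, 115993415 to 116084383), the type II receptor that binds ligand first, had 17.5, 14.8, 12.1 and 13.9 CPM in double and 24.1, 18.3, 14.8 and 14.9 CPM in single colored replicates 1 to 4. Single colored replicates 1 and 2 stood above all double colored libraries, and replicates 3 and 4 lay within their range. Its log2 fold change was 0.31 ± 0.18 (edgeR adjusted p = 0.443, and 0.196 with the block), and 0.13 when single colored library 1 was left out.

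Ratios between receptor genes within a library do not depend on library scaling. Per exon length, Tgfbr3 was the highest of the 3 receptor genes in all 4 double colored libraries, with 51.6% ± 5.75 of the length-scaled reads of the 3 genes (SD, n = 4), followed by Tgfbr2 with 30.6% ± 3.78 and Tgfbr1 with 17.7% ± 3.72. In single colored libraries the shares were 35.1% ± 5.91, 36.8% ± 2.93 and 28.1% ± 3.47. Tgfbr3 lay above Tgfbr2 in 2 of these 4 libraries, so that the order of those 2 genes was not resolved there, and above Tgfbr1 in 3. The log2 ratio of Tgfbr3 to Tgfbr1 was 1.14, 1.21, 1.93 and 1.95 in double colored replicates 1 to 4 and −0.19, 0.12, 0.59 and 0.72 in single colored ones, with no overlap. This ratio was chosen after its values were seen and is given without a test. The ratio of Tgfbr2 to Tgfbr1, planned as a test, was 0.80 ± 0.33 in double and 0.39 ± 0.13 in single colored cells on the log2 scale (SD, n = 4; two-sided p = 0.0571 by an exact permutation test, 0.171 adjusted over 3 ratios, where the smallest possible p is 0.0286). Within the numbered pairs the exact p was 0.125, the smallest that 4 pairs allow.

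**Figure D3:**
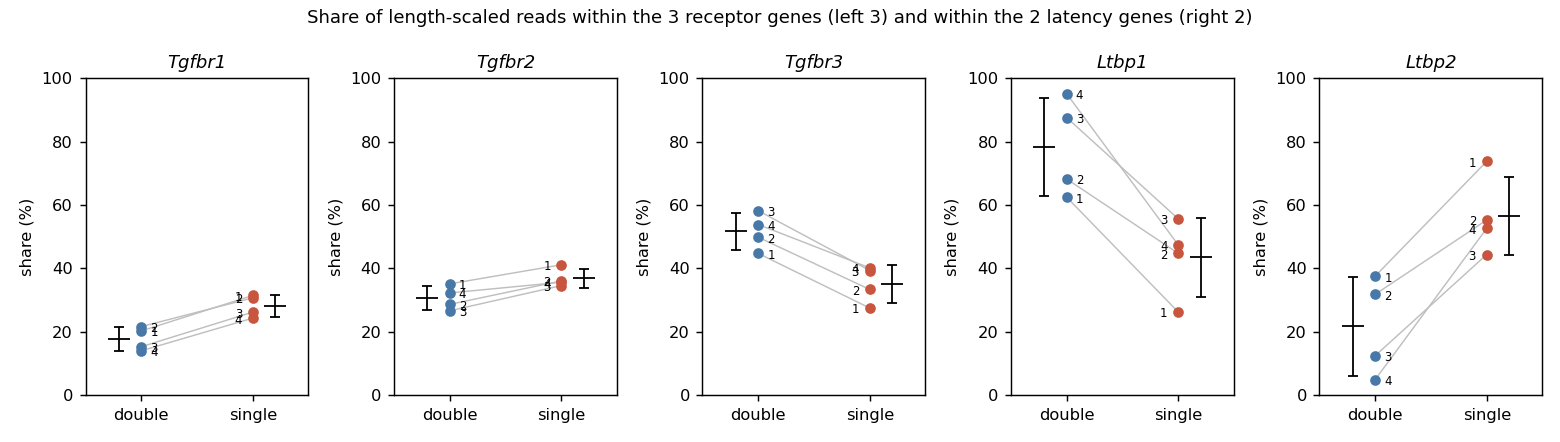
Share of length-scaled reads (y axis, percent, from 0 to 100) that each receptor gene took among Tgfbr1, Tgfbr2 and Tgfbr3 (left 3 panels) and each latency gene among Ltbp1 and Ltbp2 (right 2 panels), by library and with mean ± SD. The share of Tgfbr3 was 44.7% to 58.2% in double and 27.5% to 40.1% in single colored libraries, and that of Ltbp2 was 4.85% to 37.5% and 44.4% to 73.8%.

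The latency genes split in direction. Ltbp2 (ENSMUSG00000002020, chromosome 12, 86124162 to 86217482) encodes a matrix protein of the latent TGF-beta binding family that, unlike Ltbp1, is not known to bind latent TGF-beta, and it associates with fibrillin and elastic fibers. It stood at 6.16, 5.45, 1.51 and 0.501 CPM in double colored replicates 1 to 4 and at 23.0, 10.6, 7.65 and 6.79 CPM in single colored ones. All 4 single colored libraries exceeded all double colored ones, as for 5.37% of all tested genes, but both groups spread widely, with replicates 1 and 2 above 3 and 4 in each. The log2 fold change was 1.83 ± 0.76 (SE; edgeR adjusted p = 0.320), the largest of the 10 genes. Within the pairs the differences were 1.90, 0.96, 2.32 and 3.70, and with the replicate block Ltbp2 rose by 2.04 (adjusted p = 0.00048). Without both libraries numbered 1 the blocked fit gave 2.13 (adjusted p = 0.00516). The summed fibroblast markers differed in the same direction, by 1.22, 0.49, 0.93 and 0.80 on the log2 scale in pairs 1 to 4, and the sum was also higher in replicates 1 and 2 than in 3 and 4 of each group. Within that list the matrix genes Col1a1, Col1a2, Col3a1 and Postn had log2 fold changes of 1.00 to 1.76, of which only Col1a1 passed the threshold without the block. The others were Lum at 0.29, Pdgfra at 0.09, Dcn at −0.10, Dpt at −0.44, Tcf21 at −0.79 and Gsn at −0.84, and with the block Dpt and Gsn were lower (edgeR adjusted p = 0.0370 and 0.000187). Their part in the Ltbp2 difference was not tested. D030025P21Rik, which runs the other way, shares 9.33% of the exon length of Ltbp2, and reads of the 2 genes there cannot be told apart because no source states whether reads were counted by strand.

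Ltbp1 (ENSMUSG00000001870, chromosome 17, 75404908 to 75791852), which binds the latent complex and anchors it in the matrix, had 13.4, 15.3, 13.96 and 12.8 CPM in double and 10.7, 11.2, 12.5 and 7.98 CPM in single colored replicates 1 to 4. The single colored libraries all lay below the double colored ones, as for 3.76% of all tested genes. Yet the highest single colored value, at 12.5 CPM, was close to the lowest double colored value of 12.8 CPM. The log2 fold change of −0.38 ± 0.16 did not pass the threshold (edgeR adjusted p = 0.276, and 0.105 with the block). With scaling by library totals alone its sign turned, to 0.13 (adjusted p = 0.741). Per exon length, Ltbp1 exceeded Ltbp2 in all 4 double colored libraries, and Ltbp2 exceeded Ltbp1 in 3 of 4 single colored ones, the exception being replicate 3. The log2 ratio of Ltbp2 to Ltbp1 was −2.22 ± 1.62 in double and 0.41 ± 0.77 in single colored libraries (SD, n = 4), a ratio also chosen after its values were seen and not tested.

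**Figure D4:**
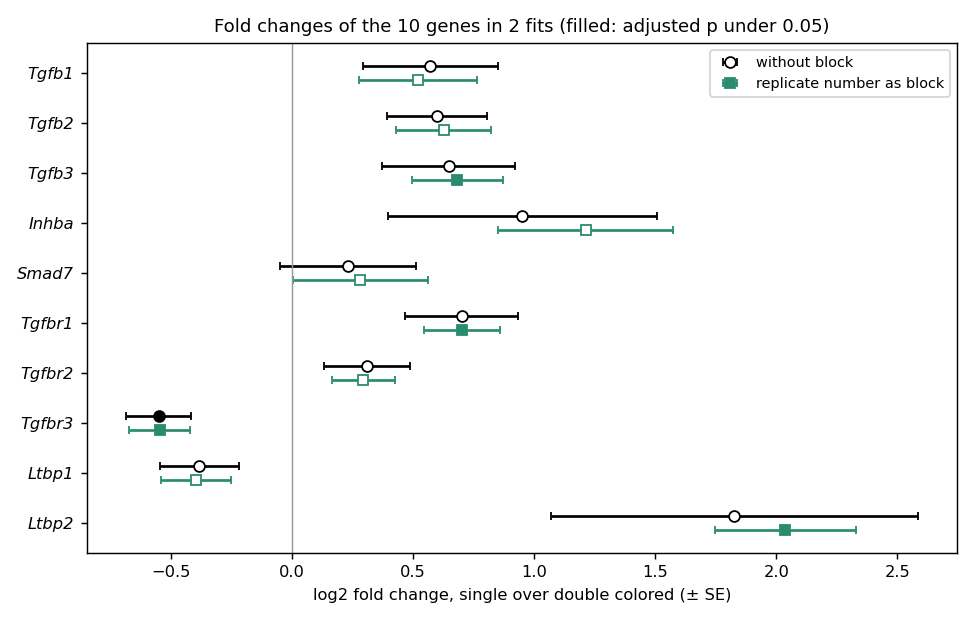
Log2 fold change of single over double colored cells (x axis) with its SE for the 10 genes, from the edgeR fit without a block (circles) and with the replicate number as a block (squares). Filled symbols mark an adjusted p under 0.05, reached by Tgfbr3 in both fits and by Tgfb3, Tgfbr1 and Ltbp2 with the block, and the SE of Ltbp2 was the widest without it, 0.76.

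The 3 TGF-beta ligand genes had similar fold changes, from 0.57 to 0.65 on the log2 scale, and none passed the threshold without the block. Tgfb2 (ENSMUSG00000039239, chromosome 1, 188447065 to 188529871), the ligand with the greatest need for betaglycan, was measured at 6.49, 8.23, 7.09 and 4.01 CPM in double and at 10.8, 8.41, 9.58 and 10.2 CPM in single colored replicates 1 to 4. All single colored values lay above the double colored ones, as for 5.37% of all tested genes. In pair 2, though, the difference was 0.03 on the log2 scale, against 0.43 to 1.34 in the other pairs. The log2 fold change was 0.60 ± 0.21 (SE; edgeR adjusted p = 0.167, and 0.0580 with the block).

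Tgfb3 (ENSMUSG00000021253, chromosome 12, 87397694 to 87419991), a ligand with known roles in palate and heart development, had 6.74, 5.32, 3.54 and 2.67 CPM in double and 9.80, 7.33, 6.17 and 5.24 CPM in single colored replicates 1 to 4. The groups overlapped, but each single colored library exceeded its numbered partner, by 0.46 to 0.96 on the log2 scale. Its fold change of 0.65 ± 0.27 had an edgeR adjusted p of 0.272, and with the block Tgfb3 rose by 0.68 (adjusted p = 0.0312). Without both libraries numbered 1 the blocked adjusted p was 0.0858.

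Tgfb1 (ENSMUSG00000002603, chromosome 7, 26472021 to 26490096), the ligand most often linked to fibrosis and also made by leukocytes and platelets, had 2.22, 2.32, 3.02 and 2.17 CPM in double and 3.77, 3.28, 5.23 and 2.10 CPM in single colored replicates 1 to 4. Single colored replicate 4 was the lowest of all 8 libraries and replicate 3 the highest. The log2 fold change was 0.57 ± 0.28 (edgeR adjusted p = 0.350, and 0.233 with the block), and 0.33 when single colored library 3 was left out. Platelet and megakaryocyte markers summed to 2.77 to 4.23 CPM in double and 2.99 to 4.33 CPM in single colored libraries, with Gp9 at 0 in all 8. The macrophage sum did not overlap between the groups. Of its 10 markers 4 were higher in every single colored library than in any double colored one, as were 5.37% of all tested genes. The lymphocyte sum did not overlap either, and 7 of the 8 tested lymphocyte markers were higher in this way. The part of these cell types in the ligand values was not tested.

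Inhba (ENSMUSG00000041324, chromosome 13, 16103684 to 16119044) encodes the subunit of activin A, which signals through activin receptors to the same SMADs as TGF-beta. It had 5.19, 4.18, 0.389 and 1.80 CPM in double and 6.87, 6.42, 4.94 and 4.09 CPM in single colored replicates 1 to 4. The value of double colored replicate 3 rests on 9 reads, and its pair showed the widest difference, 3.59 on the log2 scale against 0.40, 0.62 and 1.18 in pairs 1, 2 and 4. The fold change was 0.95 ± 0.55 (edgeR adjusted p = 0.470, and 0.0558 with the block), and 0.58 when double colored library 3 was left out. Without both libraries numbered 1 the blocked fit gave 1.57 (adjusted p = 0.0484).

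Per exon length the 4 ligand genes were close to each other. In double colored cells mean levels were 0.951 ± 0.156 CPM per kilobase for Tgfb1, 1.33 ± 0.368 for Tgfb2, 1.35 ± 0.537 for Tgfb3 and 1.46 ± 1.11 for Inhba (SD, n = 4), so that no neighbors in this order differed beyond their spread. In single colored cells the order was Tgfb1 at 1.41 ± 0.506, Tgfb2 at 2.01 ± 0.212, Tgfb3 at 2.11 ± 0.583 and Inhba at 2.82 ± 0.651 CPM per kilobase, with Inhba above Tgfb3 in 4 of 4 libraries. The balance of the TGF-beta ligands showed no detectable difference. The log2 ratio of Tgfb2 to Tgfb1 was 0.44 ± 0.41 in double and 0.58 ± 0.58 in single colored cells (two-sided p = 0.743 by an exact permutation test, 0.800 adjusted over 3 ratios), and that of Tgfb3 to Tgfb1 was 0.42 ± 0.67 and 0.62 ± 0.53 (exact p = 0.800, 0.800 adjusted). The sign of the first difference turned when library 4 of either group was left out (to −0.02 for double and −0.12 for single colored), and that of the second without double colored replicate 3 (to −0.01).

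Smad7 (ENSMUSG00000025880), an inhibitory SMAD that TGF-beta induces and that blocks the type I receptor, had 3.14, 3.23, 1.34 and 2.42 CPM in double and 2.62, 2.90, 3.20 and 3.17 CPM in single colored replicates 1 to 4. The single colored values lay within the range of the double colored ones, with double colored replicate 3 the lowest. Pairs 1 and 2 differed by −0.26 and −0.16 and pairs 3 and 4 by 1.24 and 0.39. The fold change was 0.23 ± 0.28 (edgeR adjusted p = 0.774, and 0.649 with the block), and 0.02 when double colored library 3 was left out.

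In the authors' deposited table, whose test is not stated and whose fold changes are double over single colored, each of the 10 genes had the sign opposite to the values above, hence the same direction. The log2 fold changes in the authors' deposited table were −1.81 for Ltbp2 (raw p = 0.00805, FDR = 0.299), 0.56 for Tgfbr3 (raw p = 0.0110, FDR = 0.334), −0.69 for Tgfbr1 (raw p = 0.0226) and −0.59 for Tgfb2 (raw p = 0.0314). None of the 10 had an FDR under 0.05 in the authors' deposited table.

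Of 93 other genes of the pathway, from a list chosen with earlier results of these data known, 75 were tested. Without the block 6 rose and none fell, where 2.32% of all tested genes were called higher and 0.16% lower. With the block 17 were higher and 1 lower, against 4.97% and 2.57% of all tested genes. The median log2 fold change of the 75 was 0.24. Among genes of latency and ligand activation 1 of 17 tested rose, with a median of 0.37. Thbs1, which encodes thrombospondin, a matrix glycoprotein that can release active TGF-beta from its latent complex, had 23.8, 30.5, 21.6 and 22.6 CPM in double and 61.4, 63.6, 44.1 and 37.7 CPM in single colored replicates 1 to 4, with no overlap (log2 fold change 1.07 ± 0.18, edgeR adjusted p = 0.0049). It kept an adjusted p under 0.05 in all 8 fits that left out 1 library, with 0.0363 at the highest. Single colored libraries lay wholly above double colored ones for 5.37% of all tested genes. Itgb6, the integrin subunit that activates TGF-beta at epithelial surfaces, stood at 12.8, 13.8, 13.7 and 13.4 CPM in double and 6.76, 9.77, 10.3 and 6.31 CPM in single colored replicates. Its log2 fold change of −0.70 ± 0.18 narrowly missed the threshold (edgeR adjusted p = 0.0505) and narrowly passed it with RLE size factors (0.0498). With 1 library left out the adjusted p was 0.0288 to 0.136, and 7 of the 8 fits did not call it. With the block it fell by 0.72 (adjusted p = 0.00749).

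The genes that carry the signal inside the cell gave no calls. Of 7 tested SMAD and SMAD anchor genes none passed the threshold, 5 had negative fold changes and the median was −0.16, while with scaling by library totals 6 were positive and the median was 0.33. Those with the smallest p were Smad1, which serves bone morphogenetic protein (BMP) receptors (−0.33 ± 0.20, edgeR adjusted p = 0.469), and Zfyve9, which anchors SMADs at endosomes (−0.26 ± 0.18, adjusted p = 0.567). Of 7 other tested receptors of the family none passed, 6 had negative fold changes and the median was −0.17, against 7 positive and 0.33 with scaling by totals. They included the BMP receptor gene Bmpr1a at 44.1 ± 2.22 CPM in double and 36.8 ± 4.96 CPM in single colored cells (adjusted p = 0.413) and Acvr1 at 4.29 ± 1.33 and 6.06 ± 1.92 CPM (adjusted p = 0.409). Among 8 other tested ligand genes none passed, with the activin subunit gene Inhbb at 1.55 ± 0.61 and the stress-induced Gdf15 at 1.42 ± 0.54 on the log2 scale (adjusted p = 0.227 and 0.207).

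Inhibitors of the pathway were likewise not called by the edgeR test with TMM scaling, the filter on low counts and no block. With scaling by library totals 3 of the 12 intracellular and 1 of the 4 extracellular ones were higher, where 1389 of all 12466 tested genes were called higher. Of 12 tested intracellular inhibitors, with a median of −0.02, Tgif1, a corepressor of SMAD-dependent transcription, had 1.46 ± 0.627 CPM in double and 3.18 ± 0.812 CPM in single colored cells (log2 fold change 1.12 ± 0.33, edgeR adjusted p = 0.0970), and with the block it rose (adjusted p = 0.0200). Without both libraries numbered 1 the blocked fit gave 0.98 (adjusted p = 0.134), and DESeq2 and the fit with no filter called it higher (0.0343 and 0.0175). Skil, another corepressor and a direct TGF-beta target, differed by 0.42 ± 0.18 on the log2 scale (adjusted p = 0.273). Of 4 tested extracellular inhibitors, with a median of 0.24, the proteoglycan gene Bgn had 0.59 ± 0.36 and Emilin1, which limits processing of the ligand precursor, 0.76 ± 0.40 (adjusted p = 0.484 and 0.394). With single colored library 1 left out these were 0.14 and 0.31. With the block Bgn rose by 0.53 (adjusted p = 0.0354), and it was also called with no filter (0.0329).

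Textbook targets of TGF-beta rose in 5 of 20 tested cases and none fell, against 2.32% higher and 0.16% lower among all tested genes. With the block 10 were higher and none lower, against 4.97% and 2.57% of all tested genes. The median log2 fold change of the 20 targets was 0.94, in a list chosen with earlier results of these data known. These genes are matrix and wound genes that other signals also induce. Tgfbi, a matrix protein named for its induction by TGF-beta, rose by 1.71 ± 0.24 on the log2 scale, with means of 4.36 ± 1.41 CPM in double and 14.2 ± 3.04 CPM in single colored cells (SD, n = 4; edgeR adjusted p = 0.00169). Tnc, the wound matrix protein tenascin, had 8.46, 4.54, 4.54 and 4.01 CPM in double and 34.7, 18.3, 16.7 and 15.6 CPM in single colored replicates 1 to 4, with replicate 1 the highest of each group (1.99 ± 0.29, adjusted p = 0.00272). Timp1, which encodes a secreted inhibitor of matrix metalloproteinases, was higher by 1.88 ± 0.31 on the log2 scale (adjusted p = 0.00396). Each of these 3 kept an adjusted p under 0.05 whichever of the 8 libraries was left out.

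The matrix genes Fn1, which encodes fibronectin, and Col1a1, a fibrillar collagen chain, rose by 1.78 ± 0.38 and 1.76 ± 0.39 (edgeR adjusted p = 0.0374 and 0.0460). The call of Fn1 ended when double colored library 2 (adjusted p = 0.0544) or 3 (0.0618), or single colored library 1 (0.293) or 2 (0.0660), was left out. That of Col1a1 ended when double colored library 2 (0.0516) or 3 (0.0782), or single colored library 1 (0.285), 2 (0.0667) or 3 (0.0746), was left out. Both calls were also lost without the 2 libraries numbered 1 (0.114 and 0.167) and with the 5 CPM filter (0.0637 and 0.0721), and that of Col1a1 without mitochondrially encoded genes (0.0504). Both were kept with the replicate block. Col1a1 and the textbook targets Col1a2, Col3a1 and Postn are also among the 10 fibroblast markers, so these lists are not separate readings. The sum of the fibroblast markers was higher in the single colored library of every numbered pair. As given with Ltbp2, that sum was higher through Col1a1, Col1a2, Col3a1 and Postn, and 4 of the 10 markers (Dcn, Dpt, Tcf21 and Gsn) had negative fold changes. The part of fibroblast RNA in these matrix gene differences was not tested.

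**Figure D5:**
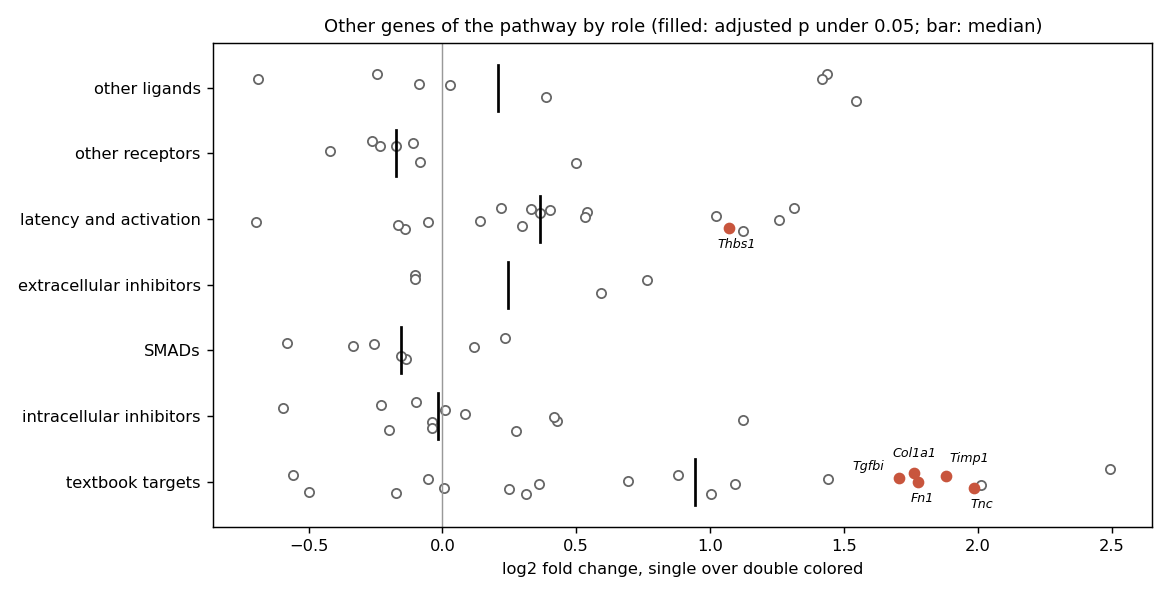
Log2 fold change of single over double colored cells (x axis) for the 75 tested pathway genes outside the 10 described first, by role (rows, points spread vertically for visibility, bar at the median). The 6 filled points had an adjusted p under 0.05, namely Thbs1 among activation genes and Tgfbi, Col1a1, Fn1, Timp1 and Tnc among textbook targets, whose median was 0.94.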

How the data were processed

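Per the labels' protocols, a miRNeasy Micro kit yielded the RNA and an Ovation kit the libraries. The submitters' processing notes name STAR 2.5.2b, featureCounts, Subread and the mm9 build. Per the file headers, the deposited reads per gene are raw counts, all whole, so no estimated count had to be rounded. The table also holds the authors' log2 fold changes, p-values and FDR, from a test not given in the sources used here. Strand use in counting is not given either. Ensembl identifiers were matched to symbols for 32919 of 37991 genes.

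Counts of all 8 libraries were tested in R 4.3.3 with edgeR 4.0.16 (filterByExpr with a minimum count of 10, TMM factors, robust quasi-likelihood F-test, Benjamini-Hochberg over 12466 genes at 0.05). Standard errors come from the F statistic. CPM use TMM factors. Within-library ratios add 0.5 to counts, as do the log2 differences within pairs. DESeq2 1.42.0 was an alternative, besides other scalings, filters, a replicate block and leaving out libraries. The test was tested on simulated data.

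Both groups carry replicate numbers 1 to 4. Across genes, the residuals of single and double colored libraries of equal number, after their group mean was removed, correlated at 0.257, 0.126, 0.136 and 0.139. The blocked fit treated libraries of equal number as pairs and did not depend on the size of these correlations. The highest value for unequal numbers was 0.108, for single colored replicate 3 and double colored replicate 4. It lay not far below the lowest value for equal numbers, 0.126. What the number stands for is not stated.

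The members and gene lists were chosen with earlier results of these data known. Named were all 10 members, called pathway genes, the 2 genes of smallest p per role, and the 3 genes most correlated with a called member.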

Additional observations from a re-analysis of the deposited data

Results flagged for a closer look

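In groups of 4 libraries, the highest or lowest library was compared with the others by its gap over the range of the group, which by chance alone exceeds the 95% limit in about 1 in 20 groups. Of 60 groups checked, 5 exceeded it. Among double colored libraries Tgfb1 was highest in replicate 3, at 3.02 CPM against 2.17 to 2.32 CPM in the others. Tgfbr3 was lowest among single colored libraries in replicate 1, at 13.0 CPM against 13.6 to 13.7 CPM. Inhbb stood at 1.71 CPM in single colored replicate 4 and at 0.681 to 0.807 CPM in the other 3. Tnc was highest in replicate 1 of both groups, at 8.46 CPM against 4.01 to 4.54 CPM in double colored and at 34.7 CPM against 15.6 to 18.3 CPM in single colored libraries.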

How the results depend on the processing

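Alternatives were planned except the fits without both libraries numbered 1, which were added after seeing the data. Main counts were 309 genes in all (289 higher, 20 lower), 0 members higher and 1 lower, and 6 pathway genes higher and 0 lower. The replicate block gave 939 (619 higher, 320 lower), 3 members higher and 1 lower (Tgfbr3), and 17 pathway genes higher and 1 lower, and changed no other call among the 10 members. Scaling by library totals gave 1390 (1389 higher, 1 lower), 5 members higher and 0 lower, and 31 pathway genes higher, and turned the sign of Ltbp1 (0.13), Bmpr1a (0.22), Smad1 (0.18) and Zfyve9 (0.22), none of them called. With no filter the counts were 805 (642 and 163), 3 members higher (Inhba, Tgfbr1 and Ltbp2) and 0 lower, and 17 pathway genes higher and 1 lower. The filter at 5 CPM in 4 libraries, which tested 7 of the 10 members, gave 97 (93 and 4) and 0 members lower. DESeq2 gave 556 (455 and 101), 1 member lower (Tgfbr3) and 1 pathway gene lower. RLE size factors and leaving out mitochondrially encoded genes each gave 1 pathway gene lower and kept Tgfbr3. Without both libraries numbered 1 the counts were 146 (135 and 11) and 0 members lower. The cause of these shifts was not tested. Leaving out 1 library gave 134 to 304 genes (133 to 277 higher, 1 to 29 lower) and the count was 191 when double colored library 2, 134 when double colored library 4 and 142 when single colored library 1 was left out. It gave 0 members higher or lower in each of 8 fits, and 4 to 8 pathway genes higher and 0 to 1 lower. The differences of the Tgfb2 to Tgfb1 ratio ran from −0.12 to 0.35 (−0.0243 without double colored library 4), of Tgfb3 to Tgfb1 from −0.00826 to 0.45 and of Tgfbr2 to Tgfbr1 from −0.54 to −0.27. The lowest read number among the 10 genes was 9, for Inhba in double colored library 3, and the next lowest was 12, for Ltbp2 in double colored library 4.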
